A study of Homo sapiens with 8 samples.

Results

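The region described here is the distal part of the long arm of human chromosome 8, from 105 Mb to the end of the chromosome (hg38), which holds the MYC gene. Its members were chosen by position. The interval itself was selected on measured ATAC-seq fold changes, because ATAC counts along it were lower in one genotype. The ATAC values below are therefore a description and no test is drawn from them. The interval held 775 of the 70312 ATAC peaks in the authors' deposited table (1.10%), with the first peak starting at position 105424872 and the last ending at 145058056. Those peaks named 236 genes as their nearest. Of these, 141 matched the authors' deposited RNA table in 142 rows, and 116 of those rows carried an adjusted p. The other 26 rows had mean normalised counts of at most 3.84.

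The study used Raji, an established B cell line from a Burkitt lymphoma. Wild-type Raji cells were compared with Raji cells in which CRISPR/Cas9 was used against a super-enhancer (a dense cluster of active regulatory elements) at RGS1 and RGS13 on chromosome 1, here called the knockout. The labels place it between these genes, but the interval they print also takes in both genes. Each genotype had 2 ATAC-seq libraries and 2 polyA RNA-seq libraries, 8 in all, described as biological replicates, and no other treatment or time point was labelled. Knockout cells were grown from single cells, and the number of clones behind the libraries was not given, so the genotype and the clone cannot be told apart in any value below.

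Burkitt lymphoma is known for chromosome translocations that place MYC beside an immunoglobulin gene, where its transcription no longer depends only on its own regulatory elements. MYC encodes a transcription factor that drives ribosome production, metabolism and cell division. It lies in a wide gene-poor domain that contains the long noncoding RNA gene PVT1 and many distant enhancers. Further along, toward the telomere, the arm becomes dense in short, broadly active genes. ATAC-seq counts the fragments that a transposase cuts from accessible DNA. Every copy of a locus adds to the count, so fewer copies of a region and less accessibility per copy cannot be told apart from these values.

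All values rest on the authors' DESeq2 results, which give 1 fold change per feature and no value per library. Values per genotype are fitted normalised counts, computed from each feature's mean and fold change. A log2 fold change below zero is read as lower in the knockout. The tables do not name their direction, and this reading rests on 1 of the 18 peaks inside the labelled deletion on chromosome 1 (192609102 to 192609836). There the authors' deposited table gave a log2 fold change of -11.71 (SE 1.45), fitted at 622 normalised counts in one genotype and 0.186 in the other. The noncoding RNA ENSG00000289995 at the same place had -6.72 (adjusted p 0.0211) in the deposited table. The other 17 peaks of the labelled deletion ranged from -0.97 to 1.14, and RGS1 RNA (430 and 4821 fitted counts in wild type and knockout) and RGS13 RNA (6396 and 5583) were present in both genotypes. The labelled interval was therefore not lost as a whole. Under this reading RGS1 RNA was higher in the knockout, with 3.49 (adjusted p 7.54e-79) in the authors' deposited table. RGS13 RNA had -0.20 there and did not pass. If the sign was coded the other way, these directions and every direction below turn. The mean normalised counts summed to 3.28e+07 over RNA rows and 1.99e+07 over ATAC peaks, and depth per library was not analysed here. All 8 B cell marker genes were above 1 CPM (counts normalised to a common library total), from 77.0 CPM upward, whereas the summed markers of T and NK, myeloid, epithelial, fibroblast and erythroid cells ranged from 0.0413 to 6.19 CPM. The highest of these was COL1A1, the 1 fibroblast marker with a row.

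ATAC counts were lower in the knockout along nearly the whole interval. The median log2 fold change of the 775 peaks was -0.90 (quartiles -1.29 and -0.54), which is 53.6% of the wild-type level, against -0.01 for all peaks. Fitted counts summed over the interval were 199148 in wild type and 110702 in the knockout, or 55.6% of wild type. At an adjusted p under 0.05 in the authors' deposited table, 509 peaks were lower (65.7%), where 15.5% of all peaks were lower. Another 24 peaks were higher (3.10%), where 20.4% of all peaks were higher. The remaining 242 passed in neither direction, and 692 of the 775 (89.3%) had a fold change below zero.

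The rest of chromosome 8 had other levels. From the start of the chromosome to 45 Mb, 840 peaks had a median of 0.86, and 587 of them were higher in the knockout. From 45 Mb to the start of the interval, 1514 peaks had a median of 0.12. In the last 10 Mb before the interval, the median of 343 peaks was 0.04, with 68 lower and 77 higher. Peaks of all other chromosomes had a median of -0.01. The chromosome thus had a higher level at its start, a level near zero in the 10 Mb before the edge, and a lower level over its distal end.

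**Figure D1:**
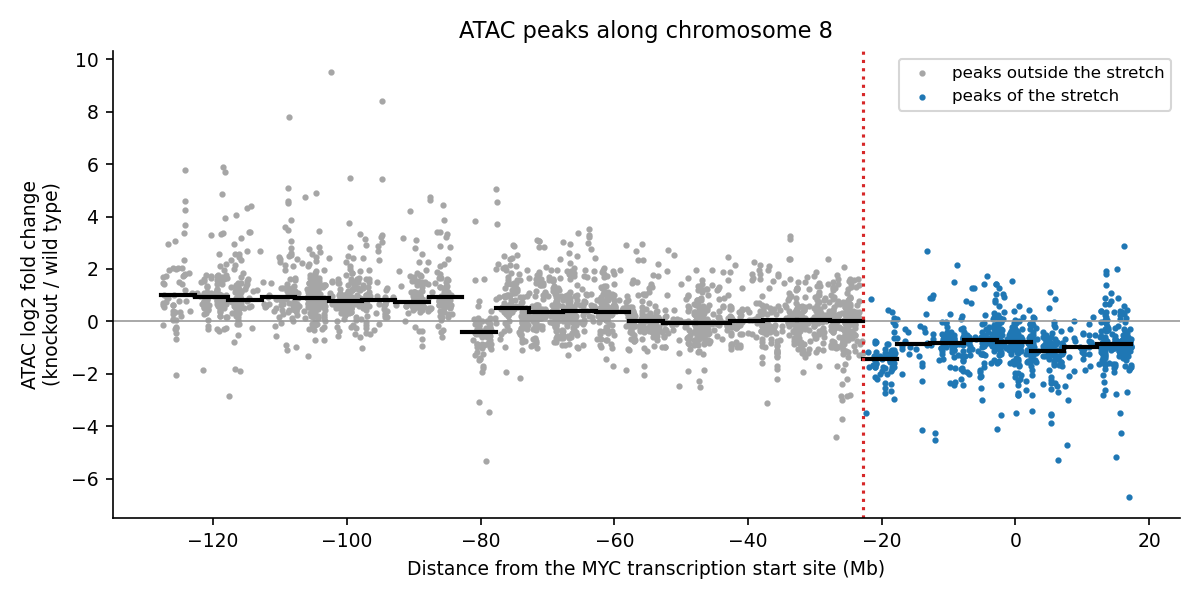
ATAC log2 fold change (knockout over wild type) of each chromosome 8 peak against its distance in Mb from the MYC transcription start, with the median of each 5 Mb bin as a black bar and the chosen edge as a dotted line. Bin medians lie near zero from 95 to 105 Mb (0.05 and 0.02) and between -0.73 and -1.43 in every bin after the edge.

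The lower level held in each 5 Mb bin of the interval. The bin from 105 to 110 Mb, with ZFPM2, OXR1 and EIF3E, had the lowest median of the interval's bins with at least 20 peaks (-1.43), and 58 of its 67 peaks were lower. The gene-poor bin from 110 to 115 Mb had a median of -0.85 over 24 peaks. The 3 bins from 115 to 130 Mb had medians of -0.83, -0.73 and -0.79, over 79, 101 and 158 peaks. The bin from 130 to 135 Mb, with CYRIB, ASAP1 and SLA, had a median of -1.12 over 110 peaks. The bin from 135 to 140 Mb had -0.97 over 31 peaks, and the gene-rich bin from 140 to 145 Mb had -0.86 over 201 peaks, of which 139 were lower. Ranked from the lowest median among 583 bins genome-wide with at least 20 peaks, the 8 full bins of the interval took ranks between 2 and 15. Elsewhere in the genome, 7 bins lay below the interval's highest bin, the lowest of them on chromosome 9 from 25 to 30 Mb (-1.46).

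The start of the interval falls in a region with few peaks, in which 559.8 kb separate the last peak outside (ending at 104865069) from the first inside. In the authors' deposited table, the 5 peaks just outside had, toward the edge, log2 fold changes of 0.13, 0.09, -0.88, -0.75 and -1.20. The 5 just inside, in introns of ZFPM2 and OXR1 and near ZFPM2-AS1, had -3.49, -1.17, -1.74, 0.84 and -1.65 in the same table. These 10 peaks had mean counts of at most 99.3. The 3 outside peaks nearest the edge thus also lay below zero, the first of them in an intron of DPYS, which encodes a pyrimidine-degrading enzyme.

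The shift was of similar size in promoters, introns, exons and intergenic DNA. Annotated promoters (93 peaks) had a median of -0.88, introns (353) -0.91, intergenic peaks (287) -0.92 and exons (15) -0.87. Promoters were 12.0% of the interval's peaks and intergenic or intronic peaks 82.6%, close to their shares of all peaks (12.0% and 81.2%). Among promoter peaks with a mean of at least 100 counts, all 82 were lower, where 20.4% of the 7730 such promoters of the whole genome were. Their quartiles of -1.08 and -0.80 lay close together, while those 7730 promoters had quartiles of -0.19 and 0.08. Peaks with a mean under 100 (433) had a median of -0.98 and 52.2% were lower, against -0.84 and 82.7% for the 342 peaks with a higher mean.

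Beside this common shift, single peaks still differed from each other. Counted from the interval's own median, 296 of 775 peaks (38.2%) lay more than 2 of their standard errors away, 168 above and 128 below. The same count for all peaks around the genome's median was 42.5%. Among peaks called lower, 311 (40.1% of the interval's peaks) had a fold change of at most -1 on the log2 scale, 68 (8.77%) at most -2 and 18 (2.32%) at most -3. Over all peaks the same shares were 5.79%, 1.09% and 0.273%.

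**Figure D2:**
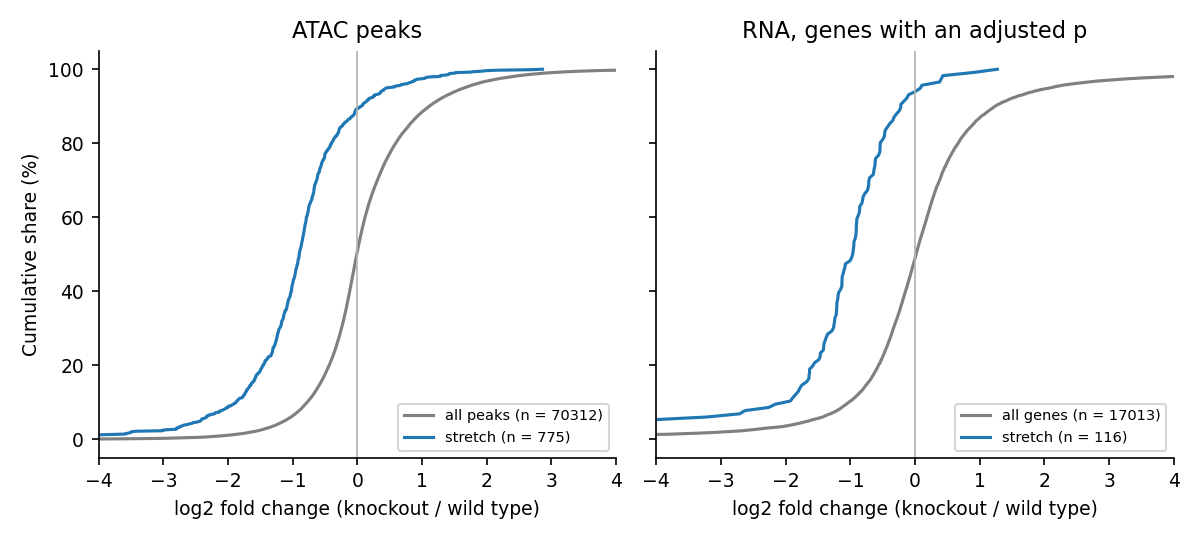
Cumulative share of ATAC peaks (left) and RNA rows (right) by log2 fold change, drawn from -4 to 4, for the interval and for all features. Both curves of the interval are displaced to the left, with medians of -0.90 for peaks and -0.96 for RNA rows.

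Some elements were nearly lost in the knockout. Among peaks with at least the genome's median count, the lowest lay in intergenic DNA at 134116330 to 134117159. There the authors' deposited table gave -5.28 (SE 0.38), from 353 to 9.08 fitted counts. The promoter of THEM6, a thioesterase superfamily gene, had -5.17 (SE 0.34) in the authors' deposited table and went from 418 to 11.6 counts. The promoter of KHDRBS3, an RNA-binding protein of the STAR family, had -4.71 in that table and went from 317 to 12.1 counts. The promoter of SLA, an adaptor that dampens antigen receptor signalling, had -3.58 in the deposited table and went from 269 to 22.5 counts. These levels lie far under the interval's common shift. The promoter of MAFA, a basic leucine zipper factor best known from pancreatic beta cells, had -3.49 in the authors' deposited table. A peak 1459 bp before the start of ZHX2 (mean 163 counts) had -3.01 in the same table. The annotated promoter peak of ZHX2 (mean 357 counts) had -0.81 there, near the interval's median. The interval's lowest value, -6.69 in the authors' deposited table, was at the ARHGAP39 promoter, whose mean of 104 counts is under the median of all peaks (it was named after its value was seen).

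Peaks called higher were few and mostly low in count, with log2 fold changes from 0.58 to 2.86. In the whole interval, 318 of 775 peaks had a mean at or above the median of all peaks. Of the 24 called higher, 20 had a mean below that median and 1 was a promoter, that of SPATC1. It had 2.86 (SE 0.38) in the authors' deposited table and a mean of 66.8 counts. Among the 24, the one with the highest mean count was a peak in LINC00861 (125941801 to 125942846), a noncoding RNA gene between TRIB1 and MYC. It had 1.04 (SE 0.12) in the authors' deposited table and went from 332 to 685 counts. A peak 7623 bp from the start of CYP11B2, the aldosterone synthase gene, had 1.98 in the deposited table (48.8 to 193 counts). A peak assigned to TRPS1 at a distance of 449.1 kb had 0.91 in the authors' deposited table, and an intronic peak of PLEC had 0.58. Introns of AGO2 and TOP1MT held the next peaks, at 0.41 each in that table, and neither passed its threshold.

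RNA was measured in other libraries of the same wild-type and knockout cells, and its values are no part of the rule that set the interval. Of the 116 tested rows, 76 fell (65.5%) at an adjusted p under 0.05 in the authors' deposited table, where 9.28% of all 17013 tested genes fell. MYC alone rose (0.862%), where 9.89% of all tested genes rose. The other 39 passed in neither direction, 32 with a value below zero and 7 above. The median log2 fold change was -0.96 (quartiles -1.41 and -0.61), against 0.02 for all tested genes. Fitted counts summed to 242504 in wild type and 133573 in the knockout, or 55.1% of wild type, beside 55.6% for the ATAC peaks. In bulk RNA, fewer cells with a transcript and less of it per cell cannot be told apart.

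**Figure D3:**
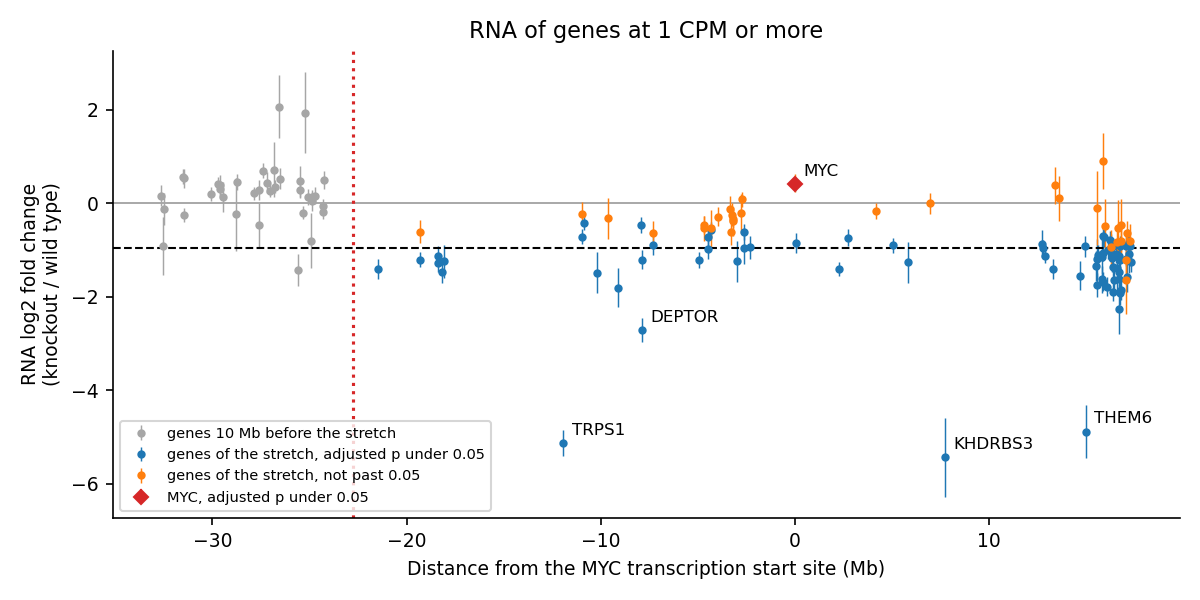
RNA log2 fold change (knockout over wild type) with its SE for genes of the interval and of the 10 Mb before it at 1 CPM or more, against their distance in Mb from the MYC start. The dotted line is the edge and the dashed line the members' median. Most genes past the edge lie near -0.96, with TRPS1, KHDRBS3, THEM6 and DEPTOR far below and MYC at 0.41.

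RNA levels also differed across the start of the interval. The 55 tested genes in the 10 Mb before the interval had a median of 0.30, with 1 lower and 5 higher. Of all 169 tested genes that GENCODE places in the interval, 86 fell (50.9%) and 2 rose (1.18%), with a median of -0.91. Over all tested genes 9.28% fell and 9.89% rose. The 7 member genes between 105 and 110 Mb had a median of -1.24, and 6 of them fell. Member genes of later bins had medians of -0.85 (115 to 120 Mb, 11 genes), -0.54 (120 to 125 Mb, 18 genes), -0.62 (125 to 130 Mb, 7 genes), -0.90 (130 to 135 Mb, 7 genes) and -1.13 (140 to 145 Mb, 63 genes, of which 44 fell). In the bin that holds MYC, 125 to 130 Mb, the median was of the other sign (0.16) over all 12 tested genes, named by a peak or not.

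Of 7 genes for cohesin, replication and DNA repair, 6 fell, with a median of -0.96. Beside this, 65.5% of the interval's 116 rows and 9.28% of all tested genes fell. Neither this group nor those below were tested against the rest of the interval. RECQL4, a DNA helicase mutated in Rothmund-Thomson syndrome, went from 1614 to 448 fitted counts. The authors' deposited table gave it -1.85 on the log2 scale (SE 0.21, adjusted p 7.78e-16). DSCC1, part of a clamp loader that acts in sister chromatid cohesion, fell by 1.21 on the log2 scale in the deposited table, and TONSL, a repair factor at stalled forks, fell by 1.13. The smallest of the 6 falls was that of RAD21, the cohesin subunit cut at anaphase, with -0.42 (adjusted p 0.0237) in the authors' deposited table. ATAD2, a bromodomain ATPase, had -0.57 there. The falls in this group thus ranged over more than 1 log2 unit.

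Of 14 genes for ribosomes, translation and RNA processing, 13 fell, with a median of -1.11 and a range of -1.49 to -0.22. The 14 include MED30, TAF2 and HSF1, which are genes of transcription and belong to none of these themes. MED30 had the lowest value of the 14. Over the interval 65.5% of rows fell, and over all tested genes 9.28%. RPL8, a protein of the large ribosomal subunit, was the most abundant at 990 CPM and went from 45252 to 19783 fitted counts (-1.19 in the authors' deposited table, with SE 0.15 and adjusted p 2.49e-13). EIF3E, a subunit of translation initiation factor eIF3, went from 14639 to 6340 counts, with -1.21 in the deposited table. Both genes have processed copies elsewhere in the genome, and how reads shared with them were counted was not given in the sources used here. CPSF1, the largest subunit of the polyadenylation cleavage factor, had -1.47 (SE 0.17) in the authors' deposited table. AGO2, the Argonaute that slices target RNA, had -1.13 there. UTP23, a small-subunit processome factor, had -0.22 in that table and was the member that did not pass.

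Of 11 genes for mitochondria and metabolism, 7 fell, with a median of -1.11, where 65.5% of the interval's rows and 9.28% of all tested genes fell. The 7 include MTSS1, a membrane-bending actin regulator that belongs to neither theme. GFUS, which makes GDP-fucose for glycans, went from 2258 to 706 fitted counts, with -1.68 (SE 0.21) in the authors' deposited table. OXR1, an oxidation resistance gene near the edge, had -1.41 in the deposited table. TOP1MT, the mitochondrial topoisomerase, had -1.11, and CYC1, the cytochrome c1 subunit of complex III, had -0.91, both in that table. SQLE, squalene epoxidase of cholesterol synthesis, had 0.08 (adjusted p 0.821) in the authors' deposited table, although its promoter peak had -0.96. NDUFB9, a complex I subunit, had -0.34 there and did not pass.

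Of 9 genes grouped for immune and lymphocyte signalling, 7 fell, with a median of -1.24. The interval's share was 65.5% and that of all tested genes 9.28%. PTK2, focal adhesion kinase, went from 1222 to 458 fitted counts, with -1.42 (SE 0.22) in the authors' deposited table. GSDMD, whose cleaved form makes the pores of pyroptosis, had -1.63 (SE 0.28) there. SLA was low in both genotypes, at 43.8 counts in wild type and 2.41 in the knockout, with -4.18 in the deposited table (SE 1.18, adjusted p 0.00376). SYBU, which had -1.24 in that table, is better known as a kinesin adaptor for axonal cargo than as an immune gene. DENND3, a Rab guanine exchange factor, had 0.38 and did not pass. Of the 14 LY6-family and neighbouring genes listed, 7 were named by a peak and THEM6 was the 1 with an RNA row. It went from 341 to 11.5 counts, with -4.89 in the authors' deposited table (SE 0.57, adjusted p 1.05e-15).

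Of 18 rows for zinc finger and homeobox factors, 11 fell, with a median of -0.91. Across the interval 65.5% of rows fell, and across all tested genes 9.28%. TRPS1, a GATA-type repressor, went from 1286 to 36.8 fitted counts, with -5.13 in the authors' deposited table (SE 0.28, adjusted p 1.49e-69). ZNF696 had -1.75 (SE 0.25) and ZHX2, a homeobox repressor, -1.21 (SE 0.18), both in the deposited table. The pseudogene ZNF252P had 2 rows, at -0.91 and -0.80 in that table, of which the first passed. ZFAT, a zinc finger factor of lymphocyte survival, stood at 0.00 in the same table. TRPS1 lay over 4 log2 units below the interval's RNA median, while ZFAT lay almost 1 unit above it.

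Of 9 genes for membrane trafficking and the endoplasmic reticulum, 6 fell, with a median of -0.78. Here too the interval's share was 65.5% and that of all tested genes 9.28%. SCRIB, a cell polarity scaffold, went from 4412 to 1283 fitted counts, with -1.78 (SE 0.20) in the authors' deposited table. VPS28, a subunit of ESCRT-I, had -1.63 (SE 0.34), EBAG9 had -1.46 (SE 0.23), and PLEC, a linker of cytoskeletal filaments, had -0.78 (SE 0.18), all in the deposited table. Of 20 neural and other tissue-restricted genes, 15 were named by a peak but 2 were tested. TSNARE1, a SNARE-domain gene, had -1.55 (SE 0.31) in the authors' deposited table. ADGRB1, an adhesion receptor of brain, went from 9.04 to 0.171 fitted counts and did not pass (adjusted p 0.189).

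At 1 CPM or more, the largest falls outside those groups began with KHDRBS3, which went from 124 to 2.87 fitted counts, with -5.43 in the authors' deposited table (SE 0.84, adjusted p 4.84e-09). DEPTOR, an inhibitor inside the mTOR complexes, went from 906 to 138 counts, with -2.71 in the deposited table (SE 0.26, adjusted p 1.88e-23). SLC39A4, a zinc importer, had -2.26, and KIFC2, a kinesin, had -1.93, in the same table. MAF1, the repressor of RNA polymerase III, went from 3033 to 818 counts, with -1.89 (SE 0.21) in the authors' deposited table. SAMD12 had -1.80 there. DEPTOR, TRPS1, THEM6 and KHDRBS3 stood at least 5 of their standard errors below the members' median. Around that median, 40 of 116 rows (34.5%) lay more than 2 of their standard errors away, where the same count over all tested genes was 28.8%.

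MYC had lower promoter ATAC counts and a higher RNA level in the knockout. Its promoter peak (127734998 to 127736381) went from 1272 to 767 fitted counts, with -0.73 (SE 0.08) in the authors' deposited ATAC table. Its RNA went from 8927 to 11830 counts, at 316 CPM on average, with 0.41 in the authors' deposited RNA table (SE 0.15, adjusted p 0.0424). The RNA value lay 1.37 log2 units above the members' median, or 8.96 of its own standard errors. MYC was not alone there. CASC11 RNA lay 6.95 and SQLE RNA 6.50 of their standard errors above that median, and neither was called. The call of a rise in MYC RNA rests on a narrow margin. It was lost when fold changes were centred on the median of all genes, at an adjusted p of 0.01 and in a test against a change of 1.5-fold.

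**Figure D4:**
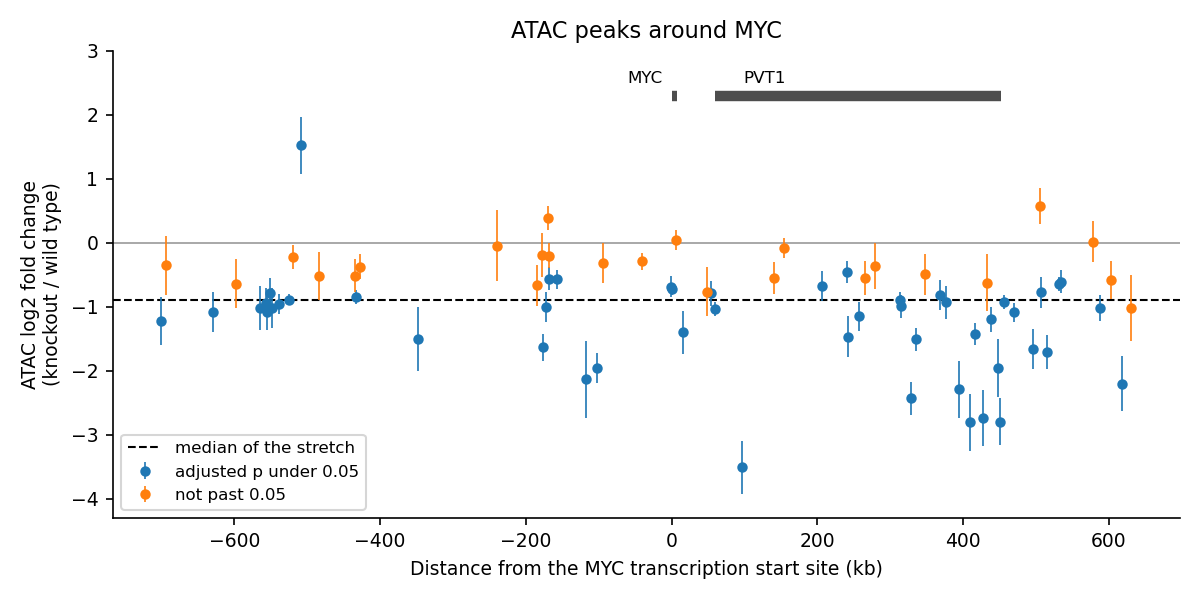
ATAC log2 fold change (knockout over wild type) with its SE for the 75 peaks within 750 kb of the MYC start, against distance from that start in kb. The dashed line is the interval's median of -0.90, the median here is -0.85, and 70 of the peaks lie below zero.

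The regulatory domain around MYC followed the interval. Within 750 kb of its start, 49 of 75 peaks were lower (65.3%) and 1 was higher (1.33%), with a median of -0.85. Over the interval 65.7% of peaks were lower and 3.10% higher, and over all peaks 15.5% and 20.4%. The 32 peaks on the CASC19, CCAT1 and CASC8 side had a median of -0.68, and the 43 on the PVT1 side had -0.93. The peak with the highest mean count on the first side, in CCAT1 (127209774 to 127211266), had -0.89 (SE 0.09) in the authors' deposited table and went from 1414 to 763 fitted counts. The 1 higher peak, also assigned to CCAT1, had 1.52 (SE 0.44) there, with a mean of 35.9 counts. Close to the MYC start, a peak of CASC11 101.7 kb away had -1.96 (SE 0.24) in the deposited table, whereas one 40.3 kb away had -0.29 (SE 0.13). Of the 3 peaks assigned to MYC, the one in its 3' UTR had 0.04 (SE 0.16) in the authors' deposited table, and the one 15.7 kb past the start had -1.40 (SE 0.34).

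PVT1, the noncoding RNA gene beside MYC that holds both enhancers and microRNA precursors, had fold changes below zero at all 25 peaks in its body. Of these, 19 were lower (76.0%), beside 65.7% of the interval's peaks and 15.5% of all peaks. The median of the 25 was -1.04, and their summed counts were 45.9% of wild type. The lowest (127831628 to 127832043), assigned to MIR1204, had -3.51 (SE 0.41) in the authors' deposited table and went from 125 to 11.0 counts. Toward the far end of the gene, the 8 peaks from 128129840 to 128186351, assigned to MIR1208, had -2.29, -2.81, -1.43, -2.74, -0.62, -1.20, -1.96 and -2.79 in the deposited table, of which -0.62 did not pass. A peak just past the end (128190944 to 128192077), with 739 counts in wild type and 390 in the knockout, had -0.92. PVT1 RNA went from 1085 to 600 counts, with -0.86 in the authors' deposited table (SE 0.22, adjusted p 0.00106). PVT1 RNA thus fell while the RNA of MYC did not. CASC11 RNA had 0.43 (adjusted p 0.122) in the deposited table. CASC11 overlaps the start of MYC on the other strand, and the strand setting of the counting was not given in the sources used here, so reads of the pair may not be separated.

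The 3 other tested protein-coding genes listed around MYC fell. CYRIB, a brake on RAC1-driven actin assembly, went from 7622 to 2863 counts, with -1.41 in the authors' deposited table (SE 0.15, adjusted p 3.11e-18). TRIB1, a pseudokinase that directs protein degradation, had -0.94 (SE 0.24), and ASAP1, an Arf GTPase regulator, had -0.74 (SE 0.17), both in that table. CASC19 had 1.27 and a mean of 5.40 counts there, and did not pass.

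Promoter ATAC values and RNA could be set side by side for 72 rows. The promoter was lower in all 72, and the RNA fell in 53, rose for MYC and passed in neither direction for 18. The interval was selected on ATAC fold changes, so lower promoters were largely fixed in advance and their count is no test. Over all features, 1681 of 8420 promoter peaks were lower and 9.28% of tested genes fell. Median values of the 72 rows were -0.87 for promoters and -1.04 for RNA. Across these genes, which share libraries and are not independent replicates, Pearson's r was 0.915 and Spearman's rank coefficient 0.410. The high r rested on TRPS1, KHDRBS3, THEM6, SLA and ARHGAP39. Without these 5, chosen after their values were seen, Pearson's r was 0.182 and Spearman's coefficient 0.268 over 67 rows.

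**Figure D5:**
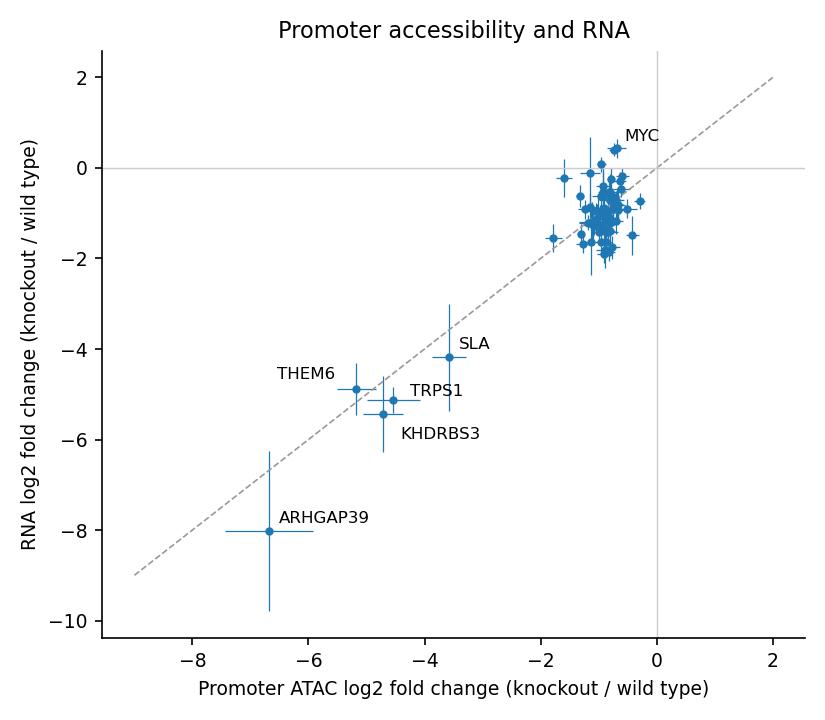
RNA log2 fold change against promoter ATAC log2 fold change (knockout over wild type) for the 72 rows with both, with SE bars and a dashed line of equality. Most points cluster near -0.87 and -1.04, and 5 genes lie far down the line. MYC lies above the cluster, and so do CASC11 and SQLE.

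For these 5 genes both values lay far below the interval's medians. TRPS1 had -4.54 at its promoter and -5.13 in RNA, KHDRBS3 had -4.71 and -5.43, and THEM6 had -5.17 and -4.89, in the authors' deposited tables. SLA had -3.58 and -4.18 (RNA SE 1.18). ARHGAP39 had -6.69 and -8.02 (RNA SE 1.77), with RNA of 45.7 fitted counts in wild type and 0.176 in the knockout. SLA and ARHGAP39 RNA each averaged 0.70 CPM, so these RNA values are less firm. The TRPS1 promoter peak had a mean of 85.7 counts, under the median of all peaks. Many other pairs sat within the cluster, among them RPL8, which had -0.79 and -1.19. EIF3E had -1.19 and -1.21, EBAG9 -1.31 and -1.46, and AGO2 -0.84 and -1.13, in the same tables. RECQL4 had -0.83 and -1.85, and MAF1 -0.90 and -1.89, so that their RNA was lower than their promoters by about 1 log2 unit.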

How the data were processed

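ATAC-seq (50000 cells per library, per the labels' protocols) and polyA RNA-seq were made from wild-type and knockout Raji cells, 2 libraries each. The authors deposited 1 DESeq2 results table per assay: mean normalised counts (a signal value, averaged over libraries), log2 fold changes, their standard errors (SE) and Wald statistics (a score) with p-values and adjusted p-values, with no count per library. The submitters' processing notes name Trim Galore, Trimmomatic, cutadapt, STAR, featureCounts, Bowtie2, HOMER and DESeq2, and GRCh38/hg38. The sources used here give no roles or versions and no peak caller. Each ATAC peak carries, per the file headers, a distance to the nearest transcription start site (TSS) in bp.

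No library was refitted, so the edgeR fit planned for count tables could not be made. Calls use the authors' DESeq2 adjusted p under 0.05, over all features. Fitted counts per genotype assume 2 of 4 libraries each. CPM is a row's share of the summed means. Peak genes were matched to RNA rows by symbol (137) or older RefSeq symbol (5), and positions are from GENCODE 44. The scripts (Python 3.11.15, pandas 2.3.3, SciPy 1.17.1) were tested on simulated data.

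Members and 9 gene lists were chosen with earlier results of these data known. Named were, per list, up to 4 genes by smallest adjusted p (2 where none passed), the 10 largest called changes each way at 1 CPM or more, MYC and PVT1, and the 6 largest peak changes each way at or above the median mean. Values of other genes and peaks named in the text were chosen after they were seen. P-values measure only the spread between these libraries. Alternatives were centring, an adjusted p of 0.01, a test against 1.5-fold, a mean of at least 100, promoter peaks or genes with promoter peaks, and the inner part of the interval.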

Additional observations from a re-analysis of the deposited data

How the results depend on the processing

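No paired analysis was possible because the tables hold no value per library, and for the same reason no replicate could be left out. No direction turned under the alternatives run. In a test against a 1.5-fold change, lower calls were 23.1% of peaks and 23.3% of RNA rows, and higher calls 0.774% of peaks. Higher peak calls were 1.46% at a mean of at least 100 and 1.08% among promoters. Higher RNA calls were 1.39% of genes with a promoter peak, and 2.27% between 110 and 140 Mb, where the RNA median was -0.63. By the DESeq2 values, higher RNA calls were 0% when centred, at an adjusted p of 0.01 and against 1.5-fold. At an unadjusted p under 0.05, 2 rows were higher as deposited and when centred, and 0 against 1.5-fold. Of 37 calls among the 39 named rows, 36 passed when centred and at 0.01 (MYC did not), and 23 against 1.5-fold. The cause was not tested. SE of low-count peaks limits single calls.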

Other observations

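Genes of the interval that no peak names were not described above. Of the 53 with a test, 10 fell (18.9%), 1 rose (1.89%) and the median was -0.49. Of all tested genes, 9.28% fell and 9.89% rose. The 53 had a median mean count of 30.1 and a median SE of 0.98. The 116 member rows had 512 and 0.26, so fewer of the 53 could pass at a given fold change. The fold changes differed too, with 67.9% of the 53 below zero and 93.1% of the 116. The reason for the lower share was not tested. The genes named here were chosen after their values were seen. BOP1, a factor of large ribosomal subunit assembly, went from 4832 to 1899 fitted counts, with -1.35 in the authors' deposited table (SE 0.22, adjusted p 2.42e-08). SHARPIN, a subunit of the linear ubiquitin ligase that acts in NF-kB signalling, had -1.40 (SE 0.28) there, and LRRC14 had -1.50 (SE 0.24). The 1 that rose was the noncoding RNA gene LINC02964 (125648327 to 126008930), from 2.83 to 96.4 fitted counts, with 5.09 in the authors' deposited table (SE 0.92, adjusted p 8.65e-07). Its body holds the higher peak at LINC00861 described above.

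Peaks called higher also lay in groups, where 3.10% of the interval's peaks and 20.4% of all peaks were called higher. Each span below was cut at its first and last called peak, so the counts within it are high by construction. At SLC45A4, all 3 peaks within 27.2 kb (141238520 to 141265756) were higher, with 1.37 to 1.92 in the authors' deposited table, and SLC45A4 RNA had 0.11 and did not pass. Around MTSS1, 5 of 9 peaks within 125.7 kb (124673158 to 124798867) were higher, with 0.73 to 1.42 in that table, whereas MTSS1 RNA fell from 188 to 79.4 fitted counts (-1.24 there, adjusted p 0.0265). These groups were noticed in the data and were not tested.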
